A study of Homo sapiens with 8 samples.

Results

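The core machinery of ER-associated degradation (ERAD) was examined as a set of 10 genes chosen by name, SEL1L, SYVN1, HERPUD1, DERL1, DERL2, DERL3, EDEM1, EDEM2, EDEM3 and OS9, among 31582 genes of the inhibitor table and 28942 genes of the knockdown table. RNA was sequenced from Kyse510 cells, an established line of esophageal squamous cell carcinoma (ESCC), in 8 libraries, 1 for each condition. For the inhibitors, cells received vehicle (DMSO-con), 7 µM SP2509, an inhibitor of the histone demethylase LSD1, 7 µM UNC0642, an inhibitor of the histone methyltransferase G9a, or both (SP+UNC), with 2 days of treatment. The dose of each compound in the combination is not stated separately. In the knockdown libraries, puromycin-selected cells (14 days) carried a doxycycline-inducible shRNA construct against LSD1 or against G9a, and each line was analysed without doxycycline (sh-LSD1-con, sh-G9a-con) and after 2 days with it (sh-LSD1+DOX, sh-G9a+Dox). Each knockdown rests on 1 hairpin, and a line given doxycycline without a silencing hairpin was not analysed here, so silencing and doxycycline itself cannot be told apart.

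ERAD removes misfolded proteins from the endoplasmic reticulum and hands them to the proteasome. EDEM proteins trim mannose from the glycans of misfolded glycoproteins, the lectin OS9 reads the trimmed glycan, and SEL1L passes the client to the ubiquitin ligase SYVN1 (also called HRD1), with HERPUD1 and the derlins as membrane partners. Many of these genes are known targets of the unfolded protein response, in which ATF6 and spliced XBP1 bind promoter elements that contain the letters CCACG. The RNA sequencing of the study addressed how gene expression in ESCC cells responds to loss of LSD1 activity, G9a activity or both.

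HERPUD1, SEL1L and SYVN1 were the 3 members with the lowest ratios in 3 of the 5 comparisons, and OS9 was among the least changed in the inhibitor libraries, so their promoters are shown as a contrast. The 250 bases before each RefSeq start site (GRCh38.p14) are printed 5′ to 3′ on the strand of the gene, with every CCACG on either strand, and the whole ERSE-II, in capitals. HERPUD1 lies at chr16:56931892-56932141 on the plus strand, SEL1L at chr14:81533854-81534103 on the minus strand, SYVN1 at chr11:65134520-65134769 on the minus strand, and OS9 at chr12:57693882-57694131 on the plus strand.
HERPUD1: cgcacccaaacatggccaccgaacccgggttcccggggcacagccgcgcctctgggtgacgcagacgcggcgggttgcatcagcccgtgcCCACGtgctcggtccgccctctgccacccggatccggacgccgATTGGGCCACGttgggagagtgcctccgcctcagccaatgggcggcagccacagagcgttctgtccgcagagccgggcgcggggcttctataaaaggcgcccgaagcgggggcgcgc
SEL1L: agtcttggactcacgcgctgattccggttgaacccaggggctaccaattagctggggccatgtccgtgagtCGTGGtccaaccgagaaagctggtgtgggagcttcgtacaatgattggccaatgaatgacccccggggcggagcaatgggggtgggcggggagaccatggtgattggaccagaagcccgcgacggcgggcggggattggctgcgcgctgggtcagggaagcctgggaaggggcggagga
SYVN1: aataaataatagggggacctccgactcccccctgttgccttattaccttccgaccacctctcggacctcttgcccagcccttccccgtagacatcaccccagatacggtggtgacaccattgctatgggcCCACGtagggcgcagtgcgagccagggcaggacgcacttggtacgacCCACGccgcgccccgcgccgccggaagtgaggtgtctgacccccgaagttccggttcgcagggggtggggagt
OS9: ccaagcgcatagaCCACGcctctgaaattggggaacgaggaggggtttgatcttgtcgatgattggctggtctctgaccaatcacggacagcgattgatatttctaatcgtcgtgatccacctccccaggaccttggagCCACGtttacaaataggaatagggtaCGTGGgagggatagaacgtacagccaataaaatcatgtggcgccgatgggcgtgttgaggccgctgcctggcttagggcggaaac

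Of the 10 members, 8 had a promoter in the RefSeq table, and DERL1 and DERL3 did not. Both strands were searched for ERSE (CCAAT, any 9 bases, then CCACG), ERSE-II (ATTGG, any 1 base, then CCACG) and UPRE (TGACGTG). HERPUD1 held 1 ERSE-II on the strand of the gene, a motif present in 14 of 27305 promoters of the same length (0.0513%). None of these 3 motifs was found in the windows of the other 7 members, while ERSE was present in 0.0806% and UPRE in 1.71% of all promoters. The short letters CCACG, added to the search after the values were known and contained in both ERSE motifs, were found in 6 of the 8 windows (all but DERL2 and EDEM2) and in 33.3% of all promoters. OS9 held 3 copies, HERPUD1, SYVN1 and EDEM1 held 2 each, and SEL1L and EDEM3 held 1 each. Only exact matches were counted, so sites with a changed letter would be missed. These matches describe letters in a short window and were not tested for binding.

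The deposited values are FPKM, fragments counted on a gene per kilobase of its length and scaled to the fragments of the library, so levels of different genes can be compared. Library totals estimated from the steps of the FPKM values ranged from 15662035 to 17889466 reads. Genes reaching 1 FPKM in either library of a comparison entered it, and a gene was called when (FPKM + 1) of the treated library differed from (FPKM + 1) of its control by a fold change of at least 1.3. No condition was replicated, so differences have no replicate check and conditions were not tested. The interval given with a ratio of FPKM is the 95% exact binomial interval (Clopper-Pearson) of the reads of 2 libraries, and it covers counting error only, since reads without molecular identifiers are not independent molecules. KDM1A, which encodes LSD1, had 26.0 FPKM in sh-LSD1-con and 6.29 FPKM in sh-LSD1+DOX, and EHMT2, which encodes G9a, had 7.85 FPKM in sh-G9a-con and 4.76 FPKM in sh-G9a+Dox. Of the squamous markers, KRT5 ranged from 74.6 to 734 FPKM and TP63 from 18.3 to 127 FPKM over the 8 libraries, SOX2 from 0.313 to 38.8 FPKM, KRT14 from 1.10 to 10.1 FPKM, and KRT6A from 0.676 FPKM with vehicle to 20.03 FPKM with UNC0642.

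**Figure D1:**
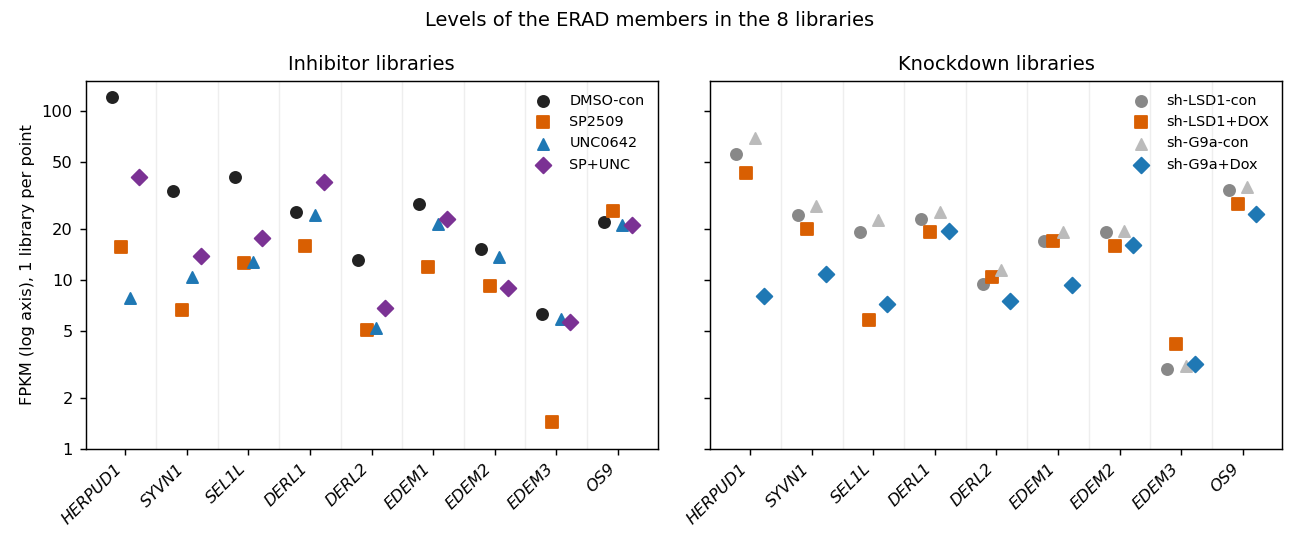
FPKM of 9 ERAD members (log axis) in the 4 inhibitor libraries (left) and the 4 knockdown libraries (right), with 1 library per point. HERPUD1 stood highest in vehicle, at 121 FPKM, and had 7.82 FPKM with UNC0642 and 7.99 FPKM in sh-G9a+Dox.

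All 9 members other than DERL3 were at 1 FPKM or above in each of the 8 libraries, so none passed the filter through 1 library alone. In vehicle the order of levels was HERPUD1, SEL1L, SYVN1, EDEM1, DERL1, OS9, EDEM2, DERL2 and EDEM3, from 121 down to 6.24 FPKM. HERPUD1 also led in both uninduced lines, followed there by OS9. The uninduced lines give the only pair of libraries with like treatment, although they carry different hairpins. The ratio of sh-G9a-con over sh-LSD1-con ran from 1.01 for EDEM2 to 1.24 for HERPUD1 (interval 1.19 to 1.29), so libraries of this kind differed by less than the fold change of 1.3 for each of the 9 members. The spread between cultures given the same treatment is not known, and neighbours in the order of levels cannot be ranked beyond it.

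Within the ligase complex, SEL1L was the member called in all 5 comparisons. SEL1L (ENSG00000071537, chromosome 14 from 81471549 to 81533861) is the adaptor that holds the complex together and is needed for SYVN1 stability. It had 40.7 FPKM in DMSO-con, against 12.7 under SP2509, 12.8 under UNC0642 and 17.6 under SP+UNC. In the knockdown libraries it went from 19.2 to 5.77 FPKM with doxycycline in the shLSD1 line and in the shG9a line from 22.5 to 7.20 FPKM. The 5 treated libraries thus lay 2.31- to 3.34-fold below their own controls, and the decrease had nearly the same size for SP2509 (ratio 0.311, interval 0.296 to 0.327), UNC0642 (0.315, 0.3003 to 0.331), sh-LSD1+DOX (0.2997, 0.279 to 0.322) and sh-G9a+Dox (0.320, 0.299 to 0.342). With TMM scaling the log2 values spread further, from -1.31 with SP2509 to -1.74 in the shG9a line. The 3 inhibitor comparisons share the vehicle library.

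SYVN1 (ENSG00000162298, chromosome 11 from 65121780 to 65134533) is the RING ubiquitin ligase of the complex. Its levels were 33.8 FPKM in DMSO-con, against 6.60 under SP2509, 10.5 under UNC0642 and 13.9 under SP+UNC. Without and with doxycycline it had 24.1 and 19.97 FPKM in the shLSD1 line, against 27.4 and 10.8 FPKM in the shG9a line. SYVN1 fell in 4 comparisons, with log2 fold changes of -2.20 (SP2509), -1.60 (UNC0642), -1.23 (SP+UNC) and -1.27 (sh-G9a+Dox), and its value of -0.26 in sh-LSD1+DOX did not reach the fold threshold, although it did with TMM scaling (-0.40). Unlike SEL1L, it was lower with SP2509 than with UNC0642 (UNC0642 over SP2509, ratio 1.59, interval 1.44 to 1.75). SYVN1 overlaps MRPL49 on the opposite strand and FAU on its own strand, and since the strand setting of the counting is not given in the sources used here, their reads cannot be told apart.

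HERPUD1 (ENSG00000051108, chromosome 16 from 56932048 to 56944863), a ubiquitin-like ER membrane protein that helps assemble the complex and is itself short-lived, had the widest range. It had 121 FPKM in DMSO-con, against 15.7 under SP2509, 7.82 under UNC0642 and 40.9 under SP+UNC. The shLSD1 line had 55.8 FPKM uninduced and 43.2 FPKM induced, and the shG9a line 69.1 and 7.99 FPKM. With UNC0642 it was 15.5-fold lower (ratio 0.0647, interval 0.0599 to 0.0698), and no other gene of the 13244 tested in that comparison had a lower log2 fold change. The decrease was 7.72-fold with SP2509, 8.65-fold in the shG9a line and 2.95-fold with SP+UNC. In the shLSD1 line the ratio was 0.775 (interval 0.743 to 0.808), a log2 fold change of -0.36 that lay just inside the fold threshold and was called once the ratios were centred on their median. A pair of intronic transcripts within HERPUD1 on the same strand had at most 4.02 FPKM in any library.

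The derlins are membrane proteins that form the path through which ERAD clients leave the ER, and their responses differed from each other. DERL1 (ENSG00000136986, chromosome 8 from 123013164 to 123042423) had 25.2 FPKM in DMSO-con, against 15.8 under SP2509, 24.1 under UNC0642 and 38.2 under SP+UNC. It was the member called in opposite directions within the inhibitor libraries: lower with SP2509 (ratio 0.626, interval 0.591 to 0.664) and higher with SP+UNC (ratio 1.52, interval 1.45 to 1.59). The SP2509 call was lost with TMM scaling (log2 -0.64 as deposited and -0.34 scaled), which leaves the SP+UNC call. With UNC0642 alone the ratio was 0.954, and its interval, 0.906 to 1.005, included 1. In the knockdown libraries DERL1 had 23.1 and 19.2 FPKM in the shLSD1 line and 25.3 and 19.6 FPKM in the shG9a line, with log2 fold changes of -0.25 and -0.35 that were not called as deposited. The shG9a value was called lower with centring (-0.49) and TMM scaling (-0.57), and the shLSD1 value with TMM scaling (-0.40). DERL1 overlaps TBC1D31 on the opposite strand.

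DERL2 (ENSG00000072849, chromosome 17 from 5471251 to 5486811) had 13.1 FPKM in DMSO-con, against 5.07 under SP2509, 5.16 under UNC0642 and 6.78 under SP+UNC. Its levels with the single inhibitors did not differ beyond counting error (UNC0642 over SP2509, ratio 1.02, interval 0.907 to 1.15), while TMM scaling gave log2 values of -0.92 with SP2509 and -1.18 with UNC0642. In the shG9a line it fell from 11.49 to 7.45 FPKM, and in the shLSD1 line it had 9.49 and 10.4 FPKM, a log2 difference of 0.12 that turned to -0.02 with TMM scaling. DERL2 overlaps MIS12 on the opposite strand, and MIS12 had 27.8 FPKM with vehicle and 6.35 with SP2509, so the share of its reads in the DERL2 value was not tested. DERL3 (ENSG00000099958, chromosome 22), the derlin typical of secretory cells, had 0 reads with vehicle and with SP2509, and 1 read each with UNC0642 and SP+UNC. A count of 0 allows up to about 0.0515 FPKM with vehicle (3 reads), and no change of DERL3 was detectable at this depth. It is listed in the inhibitor table alone, and the knockdown libraries give no value for it here.

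**Figure D2:**
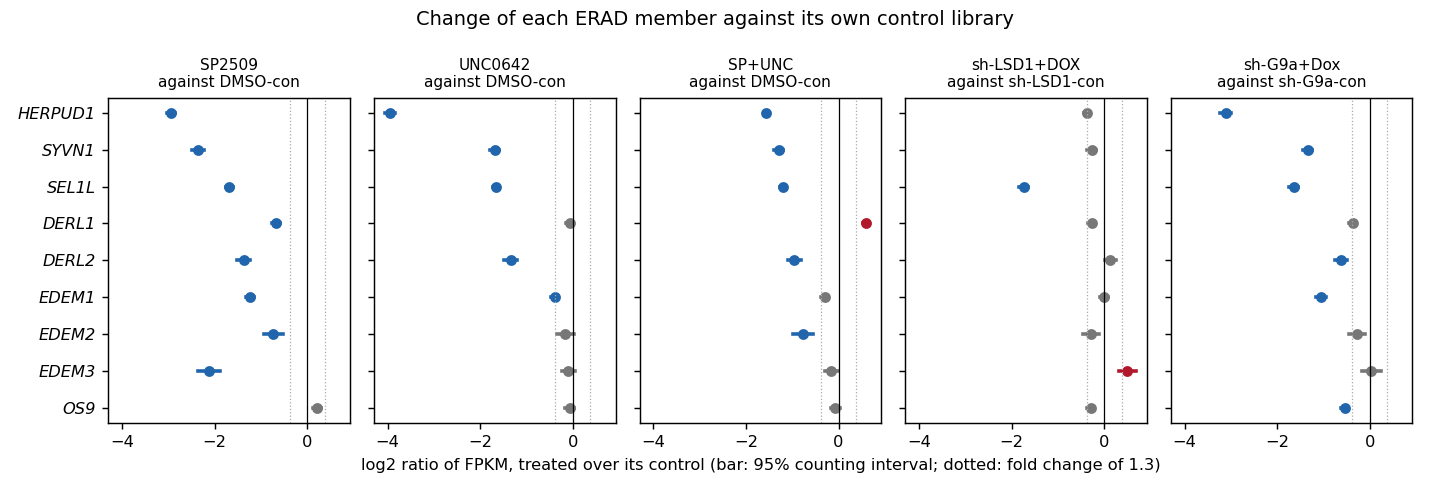
Log2 ratio of FPKM of each member, treated library over its own control, with the 95% counting interval as a bar. Blue and red points were called lower and higher at a fold change of at least 1.3 of (FPKM + 1), grey points were not called, and the dotted lines mark a ratio of 1.3 in either direction. SEL1L is blue in all 5 panels and OS9 in the shG9a panel, while DERL1 (SP+UNC) and EDEM3 (sh-LSD1+DOX) are the red points, and the EDEM3 call was lost when ratios were centred or TMM-scaled.

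The EDEM genes encode glycoprotein mannosidases (the deposited annotation gives all 3 the glycosyl hydrolase family 47 domain), and each had its own pattern. EDEM1 (ENSG00000134109, chromosome 3 from 5187646 to 5219957) had 28.2 FPKM in DMSO-con, against 11.9 under SP2509, 21.4 under UNC0642 and 23.0 under SP+UNC. In the shLSD1 line it was level, at 17.0 and 17.1 FPKM (ratio 1.003, interval 0.943 to 1.07), and in the shG9a line it fell from 19.2 to 9.29 FPKM, 2.07-fold. Its call with UNC0642 was marginal, at a ratio of 0.761 (interval 0.721 to 0.802), and was lost once ratios were centred.

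EDEM2 (ENSG00000088298, chromosome 20 from 35115357 to 35147364), which acts on the first trimming step, had 15.3 FPKM in DMSO-con, against 9.22 under SP2509, 13.7 under UNC0642 and 8.98 under SP+UNC. As deposited it was called lower in the 2 libraries with SP2509, which did not differ beyond counting error (SP+UNC over SP2509, ratio 0.974, interval 0.828 to 1.15). With TMM scaling the SP2509 value was -0.38 on the log2 scale, short of the threshold, and the SP+UNC value was -0.71. In the knockdown libraries it had 19.3 and 15.9 FPKM in the shLSD1 line and 19.4 and 16.1 FPKM in the shG9a line, with log2 fold changes of -0.27 and -0.25, not called as deposited. The shG9a value was called lower with centring (-0.40) and TMM scaling (-0.48), and the shLSD1 value with TMM scaling (-0.41).

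EDEM3 (ENSG00000116406, chromosome 1 from 184690231 to 184754913), the lowest of the expressed members, had 6.24 FPKM in DMSO-con, against 1.43 under SP2509, 5.82 under UNC0642 and 5.61 under SP+UNC. Only the SP2509 library stood apart, 4.36-fold below vehicle (ratio 0.229, interval 0.195 to 0.269, from 763 and 199 reads). In the shLSD1 line EDEM3 went the other way, from 2.97 to 4.19 FPKM (ratio 1.41, interval 1.24 to 1.61), a log2 fold change of 0.39 that was called at the threshold and lost with centring or TMM scaling. In the shG9a line it had 3.09 and 3.17 FPKM, and the sign of this difference also turned with either scaling.

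OS9 (ENSG00000135506, chromosome 12 from 57693955 to 57721557), the lectin that binds trimmed glycans and docks on SEL1L, had 22.1 FPKM in DMSO-con, against 25.6 under SP2509, 21.1 under UNC0642 and 21.1 under SP+UNC. None of the 3 inhibitor libraries was called, and with SP2509 its ratio was above 1 (1.16, interval 1.09 to 1.23). In the knockdown libraries it had 34.3 and 28.1 FPKM in the shLSD1 line and fell in the shG9a line from 35.5 to 24.4 FPKM (ratio 0.687, interval 0.650 to 0.726). TMM scaling took its log2 value with SP2509 from 0.20 to 0.50, past the threshold for a higher call. OS9 was called lower in the shLSD1 line with centring (-0.39) and TMM scaling (-0.42).

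Next, the members were read as a set beside all genes tested in the same comparison. The members, and the lists below, were chosen with earlier results of these data known, so the shares are a description and not a test. With SP2509, 8 of 9 members were called lower and 0 higher, where 39.9% of all tested genes were called lower and 21.0% higher. The members' median log2 fold change was -1.22, and that of all tested genes was -0.21. With UNC0642, 5 of 9 were lower and 0 higher, against 16.9% lower and 18.2% higher of all genes, at medians of -0.38 and -0.01. With SP+UNC, 5 of 9 were lower and 1 higher, against 31.7% and 31.4%, at medians of -0.71 and -0.02.
In the shLSD1 line, 1 of 9 members was lower (SEL1L) and 1 higher (EDEM3), against 12.3% lower and 24.8% higher of all genes. This share lies near the background, although the members' median of -0.26 was below the 0.13 of all genes and 8 of the 9 lay below that value. In the shG9a line, 6 of 9 were lower and 0 higher, against 17.6% lower and 32.9% higher, at medians of -0.56 and 0.18.

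The scaling of the libraries moved these splits. Centring each comparison on its median turned the shLSD1 split of members to 3 lower and 0 higher, where 16.6% of all genes were then lower and 17.0% higher, and TMM scaling turned it to 6 lower and 0 higher, against 18.4% and 15.3%. In the shG9a line the members were 8 lower and 0 higher with either scaling, where centring left 22.5% of all genes lower and 22.5% higher and TMM scaling 26.9% and 17.3%. With SP2509, TMM scaling gave 6 lower and 1 higher, against 24.9% lower and 34.1% higher of all genes.

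**Figure D3:**
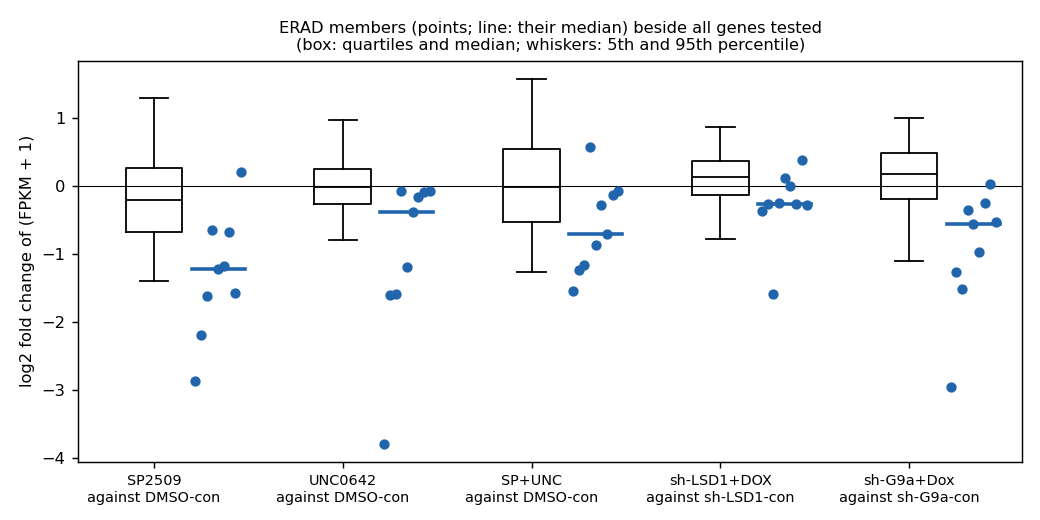
Log2 fold change of (FPKM + 1) of the 9 members that passed the filter (points, with their median as a line) beside all genes tested (boxes with quartiles and median, whiskers at the 5th and 95th percentiles) in the 5 comparisons. The members' median lies below that of all genes in each comparison, from -0.26 (sh-LSD1+DOX) to -1.22 (SP2509), and HERPUD1 is the lowest point at -3.79 with UNC0642.

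The library given both inhibitors was not the lowest for the ligase complex. HERPUD1 was 2.61-fold higher with SP+UNC than with SP2509 alone (interval 2.46 to 2.78) and 5.23-fold higher than with UNC0642 alone (interval 4.83 to 5.68). SYVN1 was 2.10-fold and 1.32-fold higher, SEL1L 1.39-fold and 1.37-fold higher, and DERL2 1.34-fold and 1.31-fold higher, each with an interval above 1. As deposited, these 4 genes thus lay closer to vehicle with the combination than with either compound alone. TMM scaling narrowed the distance between SP2509 and SP+UNC, with log2 values against vehicle of -0.92 and -0.86 for DERL2. For SEL1L those values were -1.31 and -1.16, and intervals were not recomputed with this scaling. DERL1 had its highest level there, 2.42-fold that with SP2509 and 1.59-fold that with UNC0642.
EDEM1 was also higher with the combination than with either compound, 1.93-fold that with SP2509 (interval 1.81 to 2.06) and 1.07-fold that with UNC0642 (interval 1.02 to 1.13). EDEM3 lay 3.92-fold above its SP2509 level and did not differ from its UNC0642 level beyond counting error (ratio 0.963, interval 0.871 to 1.07). EDEM2 lay near its SP2509 level as deposited, and below its level with UNC0642 (ratio 0.658, interval 0.566 to 0.763). For OS9 the combination was at the UNC0642 level (ratio 1.002, interval 0.940 to 1.07).

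**Figure D4:**
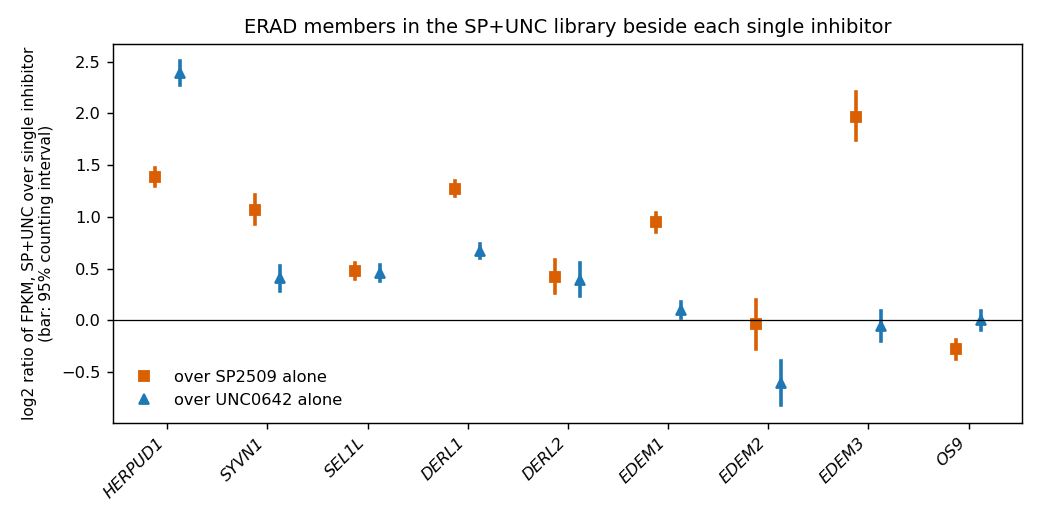
Log2 ratio of FPKM in the SP+UNC library over the SP2509 library (squares) and over the UNC0642 library (triangles) for 9 members, with 95% counting intervals. HERPUD1, SYVN1, SEL1L, DERL1, DERL2 and EDEM1 lie above 0 for both, from 1.07-fold (EDEM1 over UNC0642) to 5.23-fold (HERPUD1 over UNC0642).

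Inhibitor and knockdown values were set side by side for each enzyme. As deposited, they lay close for SEL1L but not for every member. For G9a, HERPUD1 (-3.79 with UNC0642 and -2.96 in the shG9a line, log2 fold change), SEL1L (-1.59 and -1.52), SYVN1 (-1.60 and -1.27), DERL2 (-1.20 and -0.56) and EDEM1 (-0.38 and -0.98) were called lower in both, EDEM1 with the deposited scaling only. For LSD1, SEL1L alone was called lower in both (-1.61 with SP2509 and -1.58 in the shLSD1 line), and EDEM3 was called in opposite directions, both as deposited. HERPUD1 was also lower in both with centring (-2.78 and -0.47) and TMM scaling (-2.57 and -0.50), and TMM scaling added SYVN1 (-1.90 and -0.40). EDEM3 was then called with SP2509 alone. With TMM scaling OS9 was called in opposite directions, higher with SP2509 (0.50) and lower in the shLSD1 line (-0.42). The inhibitor and knockdown values come from separate tables and have different controls.

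Other ERAD genes were taken from 4 lists of 55 genes, of which 53 were listed and 51 to 52 passed the filter. The shares of all tested genes called lower, for reading the counts, were 39.9% (SP2509), 16.9% (UNC0642), 31.7% (SP+UNC), 12.3% (shLSD1 line) and 17.6% (shG9a line), and those called higher were 21.0%, 18.2%, 31.4%, 24.8% and 32.9%. In the list of substrate recognition and ER lumen factors, 9 of 10 genes were lower with SP2509, 6 with UNC0642, 7 with SP+UNC, 5 in the shLSD1 line and 7 in the shG9a line, and 1 was higher in each of the knockdown lines. The median log2 fold change of this list was lowest in the shG9a line, at -1.46. HSPA5, the ER chaperone BiP, fell in the shG9a line from 1551 to 102 FPKM and in the shLSD1 line from 1195 to 404 FPKM. SDF2L1, a partner of ER DNAJ proteins, fell from 75.9 to 4.65 FPKM with SP2509. DNAJB9, which binds ERAD clients, fell from 23.6 to 3.23 FPKM with UNC0642. It had 11.2 FPKM in the shLSD1 line uninduced and 16.1 FPKM induced, a higher call (log2 0.49) that was lost with centring (0.38, just short of the threshold) and TMM scaling (0.34).
Of the 8 partners of the ligase complex, 5 (62.5%) were lower with SP2509, 1 (12.5%) with UNC0642, 3 (37.5%) with SP+UNC, 0 in the shLSD1 line and 2 (25%) in the shG9a line, and 1 was higher with UNC0642 and 1 with SP+UNC. The SP2509 count was 3 with centring or TMM scaling. UBE2J1, the ubiquitin-conjugating enzyme that serves SYVN1, had 31.6 FPKM in DMSO-con, against 10.97 under SP2509, 15.3 under UNC0642 and 13.5 under SP+UNC. It fell in the shG9a line from 26.7 to 14.7 FPKM and had 23.9 and 24.6 FPKM in the shLSD1 line. UBE2J2 and UBE2G2, conjugating enzymes of the same pathway, were lower with SP2509, at 6.38 and 6.50 FPKM against 12.1 each in vehicle. UBE2G2 was higher with UNC0642, at 16.3 FPKM, and with SP+UNC, at 17.2 FPKM.

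For extraction and deglycosylation factors, which pull clients into the cytosol and process them, most counts as deposited lay near the share of all genes. With SP2509 1 of 15 was higher and 5 (33.3%) lower, with UNC0642 3 were higher and 2 lower, in the shLSD1 line 3 of 16 were higher and 2 lower, and in the shG9a line 4 of 16 (25%) were higher and 3 lower. With SP+UNC 7 of 15 (46.7%) were higher and 5 (33.3%) lower. In the shG9a line centring gave 3 higher and 5 lower, and TMM scaling 3 higher and 7 lower. The shares of all genes lower were then 22.5% and 26.9%, and those higher 22.5% and 17.35%. VCP, the ATPase that extracts ERAD clients, fell from 65.0 to 16.6 FPKM with SP2509 and rose in the shG9a line from 36.9 to 61.1 FPKM and in the shLSD1 line from 28.9 to 50.2 FPKM. YOD1, a deubiquitinase, rose from 4.72 to 19.5 FPKM with SP+UNC, and also with SP2509 (12.4 FPKM) and UNC0642 (8.84 FPKM). It fell in both knockdown lines, from 5.18 to 3.61 FPKM (shLSD1) and from 5.54 to 3.14 FPKM (shG9a). UFD1, a VCP cofactor, rose from 4.19 to 15.4 FPKM with SP+UNC.
Among other ERAD ligases and membrane factors, 6 of 18 genes (33.3%) were lower with SP2509 and 0 higher, 4 (22.2%) were lower and 1 higher with UNC0642, and 8 (44.4%) were lower and 3 higher with SP+UNC. In the shLSD1 line 1 was lower and 3 were higher, and in the shG9a line 1 was lower and 7 were higher, a split that became 3 and 3 with centring or TMM scaling. TMEM129, a membrane ubiquitin ligase, fell from 7.18 to 0.441 FPKM with SP2509 and rose in the shG9a line from 3.57 to 10.02 FPKM. RNF145 and RHBDD1, a ligase and an intramembrane protease, were lower with SP2509, at 24.9 and 2.26 FPKM against 80.0 and 5.78 in vehicle.

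**Figure D5:**
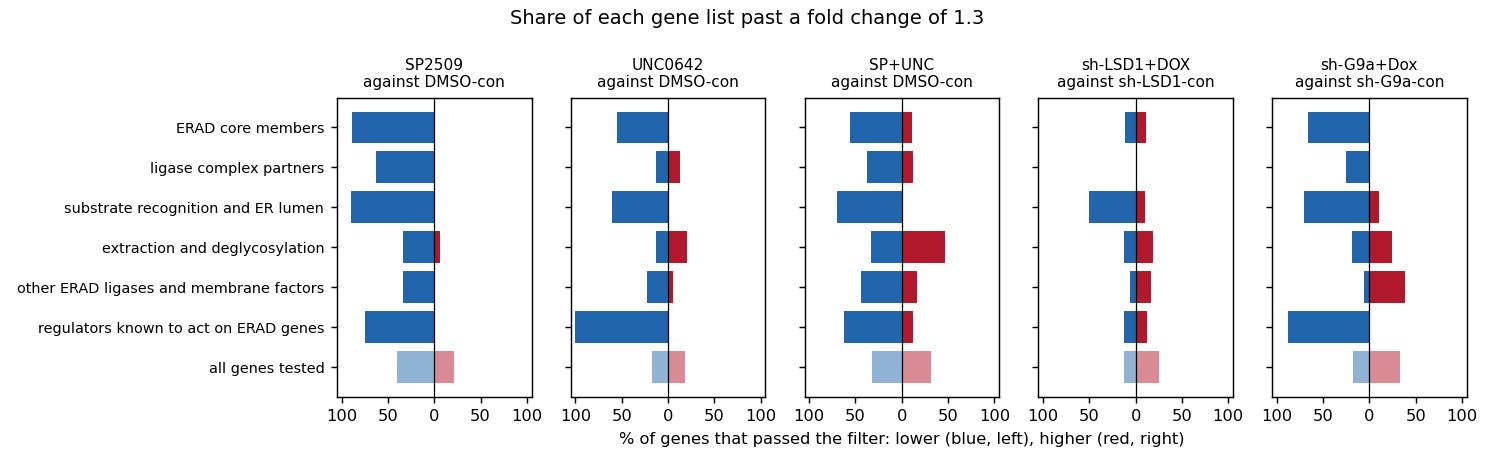
Percentage of genes past a fold change of 1.3, lower (blue, left of 0) and higher (red, right of 0), for the members, 5 further lists and all genes tested (pale). Substrate recognition and ER lumen factors were called lower in 5 to 9 of 10 genes per comparison, while extraction factors were called higher in 7 of 15 with SP+UNC.

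Regulators known to act on ERAD genes were also counted. All 8 were lower with UNC0642 and 7 (87.5%) in the shG9a line, against 16.9% and 17.6% of all genes. With SP2509 6 (75%) were lower and with SP+UNC 5 (62.5%), against 39.9% and 31.7%. In the shLSD1 line 1 (12.5%) was lower, near the 12.3% of all genes. The shares of all genes called higher ran from 18.2% (UNC0642) to 32.9% (shG9a line). The SP2509 count was 5 with centring and 4 with TMM scaling, where 34.95% and 24.94% of all genes were lower. The genes called higher were ATF4, a stress factor, with SP+UNC (from 254.9 to 360.1 FPKM) and XBP1 in the shLSD1 line. ATF4 was named after its values were seen. XBP1, the transcription factor that activates many ERAD genes, had 77.2 FPKM in DMSO-con, against 38.5 under SP2509, 24.3 under UNC0642 and 39.7 under SP+UNC. It fell in the shG9a line from 68.6 to 29.0 FPKM. It had 61.4 FPKM in the shLSD1 line uninduced and 86.2 FPKM induced, and this higher call (log2 0.48) was lost with centring (0.37) and TMM scaling (0.34). DDIT3, the stress factor CHOP, fell in the shG9a line from 59.5 to 3.58 FPKM, and ATF6B from 26.4 to 9.91 FPKM with SP+UNC. FPKM covers all transcripts of a gene, so spliced and unspliced XBP1 are not separated.

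Across the 11376 genes that passed the filter in all 5 comparisons, the genes whose 5 log2 fold changes lay nearest a member (Euclidean distance, as a description) differed from member to member. SYVN1 lay nearest to DNAJC3, an ER co-chaperone, at a distance of 0.42, followed by GPR1 at 0.45 and UNC5B at 0.67. HERPUD1 had no close neighbour, its nearest being AGR2, an ER disulfide isomerase, at 1.11, DDIT3 at 1.32 and PCK2 at 1.69. SEL1L was likewise apart, with AC135721.2 at 0.90, AL035681.1 at 0.98 and GPR1 at 1.17. DERL2 lay nearest to ZFAND1 (0.26), CPSF4 (0.35) and AL355338.1 (0.47), and DERL1 to SOCS7 (0.15), CISD2 (0.27) and MPC1 (0.34). For the EDEM genes, EDEM1 lay nearest to CYP4F11 (0.18), HR (0.37) and SSR1 (0.37), EDEM2 to DNAL1 (0.18), DNAJC16 (0.21) and DIRC2 (0.26), and EDEM3 to DESI1 (0.29), GTF2A1 (0.32) and METTL18 (0.33). OS9 lay nearest to ZNF579 (0.15), TTC17 (0.18) and ZNF318 (0.20). No member had another member among its 3 nearest genes. Only 3 of the 11376 genes were taken for each member, so whether the members changed together was not tested by this.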

How the data were processed

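Reads of 8 libraries of Kyse510 cells, with 1 library per condition, were cleaned and mapped by the authors to the human genome (GRCh38). The authors deposited FPKM values in 2 tables, 1 for the inhibitors and 1 for the knockdowns. The aligner, the counting tool and the strand setting are not given in the sources used here. Gene names differ between the tables for some identifiers, so members were matched by name and identifier in each table. Conditions were taken from the sample labels.

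Reads were estimated from the FPKM values. Genes with 1 exon and a length equal to their span in GENCODE gave the total of each library, and for other genes the smallest length at which all values were whole reads (tolerance 0.02), or the reference length where it is a multiple of it, was used. The estimated reads summed to 99.1% to 99.8% of the totals. For the 9 expressed members 1 length fitted all libraries. The length of DERL3, which sets its floor, is approximate, since it rests on 1 read each with UNC0642 and SP+UNC. Precision is limited by these reads, from 199 to 9756 per library for the 9 expressed members. The procedure was tested on simulated libraries, where 198 of 200 changed genes and 661 of 12601 unchanged genes (5.25%) were called. The simulation held counting error only, so the rate of false calls between cultures is not known from it.

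Fold changes, calls, lists and intervals were computed in Python 3.11.15 with numpy 2.4.6, pandas 2.3.3 and scipy 1.17.1, with a pseudocount of 1 and a minimum of 1 FPKM. Each treated library was compared with its own control in 5 comparisons, across all genes of a table. No test of a condition was made. The members and lists were chosen with earlier results of these data known. All members are named, together with the 3 genes of each further list with the largest change and the 3 genes nearest each member. MARCHF6 and SVIP had no match by name and were not analysed here. A total of 9 alternatives was run, on pseudocount, filter, threshold, scaling, counting error and choice of control, and TMM denotes a trimmed mean of ratios. Promoter sequences came from RefSeq.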

Additional observations from a re-analysis of the deposited data

Results flagged for a closer look

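EDEM3 was called in opposite directions by inhibition and by knockdown of LSD1, with a log2 fold change of -1.57 with SP2509 and of 0.39 with doxycycline in the shLSD1 line. The difference between the comparisons was not tested, since each rests on 1 library per condition. The call in the shLSD1 line was also lost with centring, TMM scaling, a minimum of 5 FPKM and the mean of both uninduced libraries as control.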

How the results depend on the processing

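With 1 library per condition, no replicate could be left out. No paired analysis was possible because no group has more than 1 library. The members' median log2 fold change stayed negative in each comparison under every alternative that could move it. It ran from -0.92 to -1.37 with SP2509, -0.27 to -0.39 with UNC0642 and -0.49 to -0.77 with SP+UNC. In the knockdown libraries it ran from -0.26 to -0.40 in the shLSD1 line and -0.50 to -0.79 in the shG9a line. A stricter fold threshold and a binomial requirement act on the calls alone, so neither could move this median. The median of all tested genes was not set beside these ranges. Requiring in addition an exact binomial p under 0.05 on the estimated reads changed none of the counts of members or further genes called. The counting interval of every called member already excluded a ratio of 1, so this requirement was no separate check of the member calls. It covers counting error only and does not address the spread between cultures.

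A fold threshold of 2 left 3 members lower and 0 higher with SP+UNC, 3 lower in the shG9a line and 0 higher in the shLSD1 line. Of the further ERAD genes it left 10 lower with SP2509, 5 lower and 0 higher with UNC0642, 7 lower and 2 higher with SP+UNC, 2 lower and 0 higher in the shLSD1 line, and 6 lower and 1 higher in the shG9a line. Fewer calls follow from the stricter threshold itself. The shares of all tested genes past a fold change of 2 were not counted here, so no background stands beside these counts.

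Centring on the median gave 3 of 9 members lower and 0 higher in the shLSD1 line. Of the further genes, 2 of 51 were then higher with SP2509, 3 of 52 in the shLSD1 line and 7 of 52 in the shG9a line. The shares of all tested genes called higher were 24.6%, 17.0% and 22.5%, and 16.6% were lower in the shLSD1 line. TMM scaling gave 1 of 9 members higher with SP2509, and 6 of 9 lower and 0 higher in the shLSD1 line. Of the further genes, 9 of 51 were then higher with SP2509 and 3 of 52 in the shLSD1 line. In the shG9a line 7 of 52 were higher and 21 lower. The shares of all tested genes called higher were 34.1%, 15.3% and 17.35%. Those called lower were 18.4% in the shLSD1 line and 26.9% in the shG9a line. The value subtracted from every log2 ratio was -0.09 (centring) and -0.30 (TMM) with SP2509, which raised the ratios, and 0.11 and 0.14 in the shLSD1 line and 0.14 and 0.22 in the shG9a line, which lowered them. The mean of both uninduced libraries as control gave 2 members lower and 0 higher in the shLSD1 line, and a minimum of 5 FPKM gave 0 higher, since EDEM3 lies below it. Shares of all tested genes were not counted here for either setting.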
